A study of Mus musculus with 14 samples.

Results

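Chemokines and their receptors were followed by gene symbol through RNA-sequencing counts from mouse livers and from cultured hepatic stellate cells. Members were the rows named as CC, CXC, CX3C or XC chemokines or as CC, CXC or CX3C chemokine receptors, by the patterns Ccl, Cxcl, Cx3cl1, Xcl1, Ccr, Cxcr and Cx3cr1 with their numbers. The 55 members, of the 23420 rows of each count table, were 38 ligands and 17 receptors, and 54 of the 55 had a position in the mouse annotation (GRCm38). The atypical receptor Ackr3 is listed under its older symbol Cxcr7 and counts as a member, whereas other atypical receptors and Pf4, Ppbp and similar family members fall outside these names.

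The libraries came from p62KO and WT mice, p62 being the autophagy receptor and signalling scaffold encoded by Sqstm1. Livers of 3 p62KO and 3 WT animals were sampled, and all 6 animals had been given the liver carcinogen diethylnitrosamine (DEN) and a high-fat diet (HFD). Hepatic stellate cells (HSC), the vitamin A-storing mesenchymal cells of the liver that can become myofibroblasts, had been taken from p62KO and WT livers. All stellate cells carried SV40 T antigen and were grown in DMEM with serum, with calcipotriol, which activates the vitamin D receptor, or without it (vehicle), giving 4 groups of 2 libraries. The tissue in which p62 was deleted, the strain, sex and age of the mice, the dose and time of calcipotriol and the number of cell lines are not stated in these sources. Genotype and cell line therefore cannot be told apart in stellate cells. Nothing says that the 2 libraries of a group came from separate cultures, so the p-values there measure only the spread between libraries.

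Chemokines are small secreted proteins that bind glycosaminoglycans and guide leukocytes along gradients through G protein-coupled receptors. In injured liver, Ccl2 acting on Ccr2 is known for drawing monocytes from blood, Ccl3, Ccl4 and Ccl5 act on Ccr1, among other receptors, Cxcl1, Cxcl2 and their relatives call neutrophils through Cxcr2, and Cxcl9, Cxcl10 and Cxcl11 call activated lymphocytes through Cxcr3. Many of the inflammatory ligands are NF-kappa B targets, whereas Cxcl12, the ligand of Cxcr4 and of the scavenger Cxcr7, is made constitutively by mesenchymal cells.

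Libraries held 17506607 to 20040583 counts in liver and 15207117 to 29079258 in stellate cells. Levels are given as counts relative to the TMM-scaled library total, as CPM, and passing means an adjusted p under 0.05 over all genes tested in that comparison (edgeR quasi-likelihood test, Benjamini-Hochberg). Sqstm1 stood at 1.44 to 2.12 CPM in p62KO livers, against 448 to 583 CPM in WT livers, and at 0.211 to 0.835 CPM in p62KO stellate cells, against 316 to 340 CPM in WT stellate cells. All 15 stellate cell and myofibroblast markers except Lrat, the retinol-esterifying enzyme, had counts in every stellate cell group, and Lrat was at 0 in all 8 libraries. Among the stellate cell libraries, replicate 1 of vehicle-treated p62KO cells stood apart in its chemokines, and values without it are given beside the main results that rest on it.

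In liver, 49 of the 55 members had at least 1 count and 33 had counts in every library. Those at 0 in all 6 livers were Ccl1, Ccl21a, Ccl21b, Ccl21c, Ccl26 and Ccl27b. After the filter on low counts, 21 ligands and 9 receptors were tested. In stellate cells 37 members had counts, 13 of them in every library, and 15 ligands and 2 receptors were tested. The 18 at 0 in all 8 stellate cell libraries were the leukocyte receptors Ccr1, Ccr2, Ccr8, Cxcr2, Cxcr3 and Cxcr5 and the ligands Ccl1, Ccl4, Ccl12, Ccl19, Ccl21a, Ccl21b, Ccl21c, Ccl22, Ccl24, Ccl26, Ccl27b and Xcl1. A count of 0 puts a gene only under a limit, taken here as 3 counts over the group, and such limits cover counting error only. Members that pass the filter through 1 group alone had to differ, so their number is a description.

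Per kilobase of exon, Ccl6 (34.8 CPM per kb), Ccl9 (31.0) and Cxcl12 (29.2) led in p62KO livers. In WT livers Cxcl12 led at 38.3 CPM per kb, followed by Ccl9 at 23.1, Cxcl1 at 19.0 and Ccl6 at 11.5. In stellate cells Cxcl12 led by far, at 200 CPM per kb in vehicle-treated p62KO cells and 310 in vehicle-treated WT cells, and at 177 in calcipotriol-treated p62KO cells and 252 in calcipotriol-treated WT cells. Ccl2 came next in all 4 groups, at 165 CPM per kb in vehicle-treated p62KO cells, 7.11 in vehicle-treated WT cells, 28.5 in calcipotriol-treated p62KO cells and 14.5 in calcipotriol-treated WT cells. The first of these rests on p62KO replicate 1, and replicate 2 alone had 22.8 CPM per kb. Cxcl12 made up 70.7% of the summed ligand CPM in vehicle-treated p62KO stellate cells (95.2% in replicate 2 alone) and 94.1% to 98.6% in the other stellate cell groups, against 41.8% in p62KO livers and 60.8% in WT livers.

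The liver comparison asked how chemokine transcripts differed in p62KO animals after DEN and HFD. Of the 30 members tested, 5 rose in p62KO livers, 0 fell and 25 did not pass, where 7.94% of all 12851 genes tested passed and 4.48% passed as higher. The 5 were the monocyte receptor Ccr2, the Cxcl12 receptor Cxcr4, and the ligands Ccl3, Ccl6 and Cxcl14. Over the 30 tested members the median log2 fold change was 0.82, against 0.02 over all genes. In bulk liver, fewer or more cells of a type and less or more RNA per cell cannot be told apart.

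Among receptors, 2 of 9 tested rose, 7 did not pass, and all 9 fold changes were above 0. Ccr2, on chromosome 9 at 124101950 to 124113557, stood at 14.1, 24.8 and 10.6 CPM in p62KO livers, against 6.07, 6.68 and 6.13 CPM in WT livers. The WT livers were nearly equal and the p62KO livers scattered above them, with replicate 2 highest (1.39 ± 0.303, adjusted p = 0.0423). Cxcr4 stood at 8.66, 6.16 and 6.0 CPM in p62KO livers, against 3.24, 3.90 and 2.90 CPM in WT livers, without overlap (1.05 ± 0.226, adjusted p = 0.0416). Ccr1, a receptor of Ccl3, Ccl5, Ccl6 and Ccl9 in the same chromosome 9 cluster, stood at 2.53, 4.14 and 1.96 CPM in p62KO livers, against 1.57, 0.905 and 1.11 CPM in WT livers, and did not pass (1.26 ± 0.377, adjusted p = 0.0733; 0.028 without p62KO replicate 3). Cx3cr1, the fractalkine receptor of monocytes and Kupffer-lineage cells, stood at 7.74, 9.67 and 5.36 CPM in p62KO livers, against 5.87, 4.24 and 2.62 CPM in WT livers, which overlapped (adjusted p = 0.134). Its annotated span overlaps several genes on both strands, and the strand setting of the counting is not stated. Summed over the 17 receptors, p62KO livers held 43.4, 50.6 and 30.4 CPM and WT livers 21.5, 21.2 and 17.2 CPM.

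Among ligands, 3 of 21 tested rose, 0 fell and 18 did not pass. Ccl6, a mouse CC chemokine of myeloid cells that acts on Ccr1, stood at 51.5, 64.1 and 71.8 CPM in p62KO livers, against 20.1, 17.0 and 24.6 CPM in WT livers. The groups were far apart (1.60 ± 0.179, adjusted p = 0.0218). Ccl6 lies on chromosome 11 at 83587882 to 83593087, inside the annotated non-coding gene E230016K23Rik on the opposite strand, whose reads may not be separable from it. Ccl9, its neighbour and relative, stood at 109, 80.1 and 94.7 CPM in p62KO livers, against 62.5, 76.0 and 72.5 CPM in WT livers, and did not pass (0.43 ± 0.145, adjusted p = 0.0968). Ccl3, the macrophage inflammatory protein that binds Ccr1, was low, at 2.53, 1.30 and 1.56 CPM in p62KO livers, against 0.607, 0.340 and 0.111 CPM in WT livers. It had the largest fold change of the 30 tested members (2.31 ± 0.558, adjusted p = 0.0494). Cxcl14, a constitutive epithelial and stromal chemokine, stood at 12.0, 5.39 and 5.42 CPM in p62KO livers, against 2.73, 2.49 and 2.73 CPM in WT livers. All p62KO livers were above the tightly grouped WT livers, with p62KO replicate 1 highest (1.52 ± 0.348, adjusted p = 0.0449).

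These 5 calls rest on few libraries. Leaving out 1 liver at a time, between 0 and 8 members passed and between 3 and 3669 genes overall. Without p62KO replicate 1 Ccl6 alone passed (adjusted p = 0.0268), and without WT replicate 2 none did, Ccl6 being nearest (0.0525). Without WT replicate 1, WT replicate 3 or p62KO replicate 2 the 5 members had adjusted p-values of 0.0814 to 0.148, whereas without p62KO replicate 3 all 5 passed, at 0.00484 to 0.0292. Their log2 fold changes stayed above 0 in all 6 of these fits, for Ccl6 between 1.47 and 1.74 and for Ccr2 between 0.96 and 1.62.

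**Figure D1:**
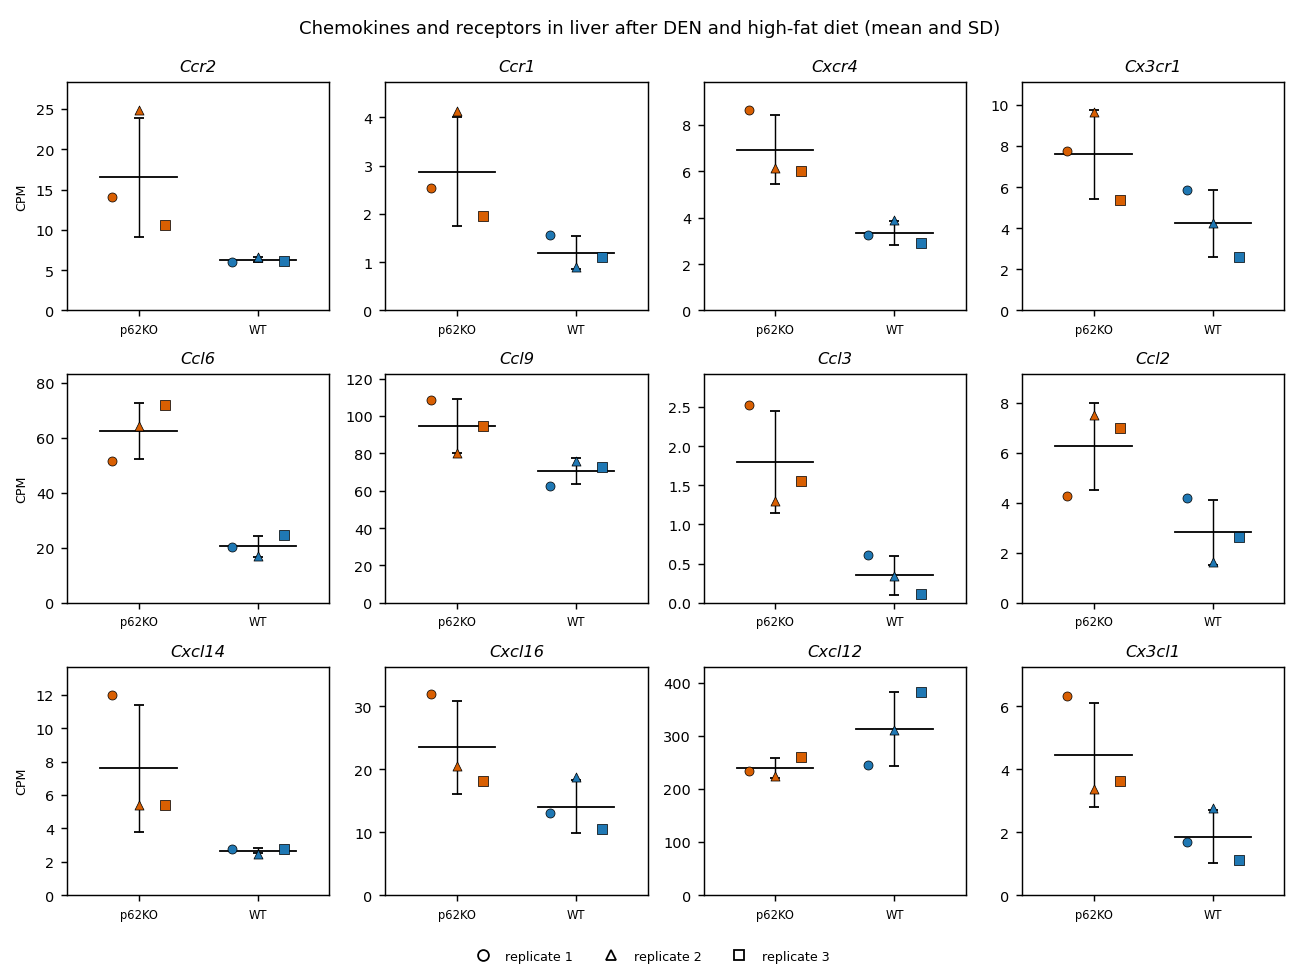
CPM (linear axis starting at 0) of 12 chemokines and receptors in individual p62KO and WT livers, with the mean and SD of each group (n = 3). Ccl6 separates the groups widely, Ccr2 scatters among p62KO livers at 10.6 to 24.8 CPM above WT livers at 6.07 to 6.68 CPM, and Cx3cr1, Cxcl12 and Cxcl16 overlap.

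Ccl2, the main ligand of Ccr2, stood at 4.28, 7.50 and 6.97 CPM in p62KO livers, against 4.20, 1.64 and 2.62 CPM in WT livers, and did not pass (1.14 ± 0.373, adjusted p = 0.0895). Cx3cl1, the membrane-bound chemokine fractalkine, stood at 6.33, 3.37 and 3.63 CPM in p62KO livers, against 1.67, 2.77 and 1.11 CPM in WT livers, and did not pass either (1.26 ± 0.402, adjusted p = 0.0841). In both genes every p62KO liver lay above every WT liver. Cxcl16, a transmembrane ligand of Cxcr6, stood at 31.9, 20.5 and 18.0 CPM in p62KO livers, against 13.0, 18.7 and 10.4 CPM in WT livers, with overlap (0.74 ± 0.278, adjusted p = 0.118). It shares 552 bases with Zmynd15 on the opposite strand.

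None of the tested neutrophil-attracting and lymphocyte-attracting ligands passed. Cxcl1 stood at 45.6, 43.5 and 20.7 CPM in p62KO livers, against 24.8, 48.1 and 33.9 CPM in WT livers, fully overlapping (0.04 ± 0.338). Cxcl2, another Cxcr2 ligand, stood at 1.85, 1.25 and 1.04 CPM in p62KO livers, against 0.810, 0.736 and 0.780 CPM in WT livers, without overlap (0.83 ± 0.343, adjusted p = 0.144). Cxcl5, too low to be tested, had 5, 15 and 6 counts in p62KO livers, against 3, 2 and 3 counts in WT livers, also without overlap. Their receptor Cxcr2 stood at 1.41, 1.64 and 1.04 CPM in p62KO livers, against 0.860, 1.47 and 1.5 CPM in WT livers (0.10 ± 0.351). Of the interferon-inducible ligands, Cxcl9 stood at 137, 17.6 and 23.5 CPM in p62KO livers, against 19.1, 15.3 and 32.6 CPM in WT livers, so that p62KO replicate 1 alone was high. Ccl5, made by T and NK cells, was likewise high in p62KO replicate 1, at 25.3 CPM, with 6.30 and 6.0 CPM in the other p62KO livers and 8.25, 6.79 and 8.36 CPM in WT livers. Cxcl10 stood at 7.15, 5.29 and 5.19 CPM in p62KO livers, against 11.3, 3.79 and 9.03 CPM in WT livers. It lies inside Art3 on the opposite strand, whose reads may not be separable from it. Cxcl12 stood at 233, 224 and 259 CPM in p62KO livers, against 244, 311 and 383 CPM in WT livers, the groups overlapping by 1 library on each side (-0.39 ± 0.182, adjusted p = 0.185).

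Every p62KO liver exceeded every WT liver in 12 of the 30 tested members, and every p62KO liver was below every WT liver in 1, Ccl27a, a skin-homing chemokine, where this held for 18.3% and 19.2% of all genes tested. Ccl27a stood at 2.09, 2.55 and 2.54 CPM in p62KO livers, against 3.59, 3.28 and 3.45 CPM in WT livers (-0.52 ± 0.211, adjusted p = 0.136). Below the filter, Ccl8, another monocyte-attracting ligand, had 24, 4 and 6 counts in p62KO livers, against 2, 1 and 0 counts in WT livers. The ratio of the sums was 10.7 with a 95% counting interval of 3.36 to 54.4, and 4.84 (1.25 to 27.4) without p62KO replicate 1. Cxcl17 had 27 counts in p62KO livers and 2 in WT livers, a ratio of 12.7 (3.20 to 111), all of them in p62KO replicates 1 and 2 within the p62KO group. It lies inside the annotated antisense gene 4732471J01Rik on the opposite strand.

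**Figure D2:**
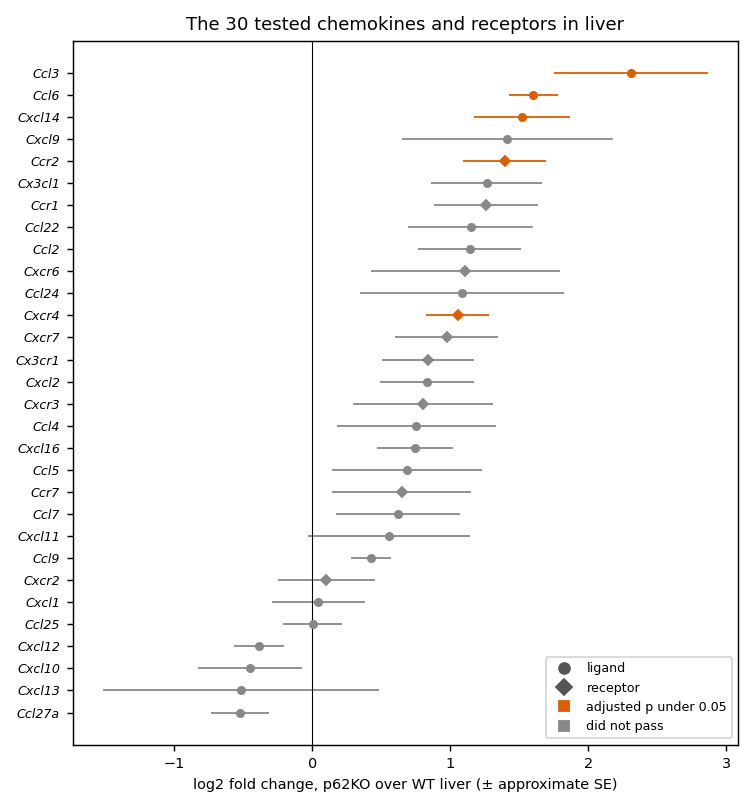
log2 fold change of p62KO over WT liver with its approximate SE for the 30 tested members, ordered by size. The 9 receptors all lie right of 0, the 5 members that passed run between 1.05 and 2.31, and Cxcl9 has a wide error because 1 p62KO liver was high.

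Lists of related genes were counted in the same way, with 0% to 18.2% of a list passing, beside 7.94% of all genes and 16.7% of the tested members. Of 22 NF-kappa B signalling and feedback genes 2 rose, 0 fell and 20 did not pass, a share of 9.09%, with a median log2 fold change of 0.24. Those that rose were the adhesion molecule Vcam1, at 162, 133 and 133 CPM in p62KO livers against 42.8, 48.6 and 58.7 CPM in WT livers (1.51 ± 0.156, adjusted p = 0.0216), and the NF-kappa B inhibitor Tnip1. Of 16 tested upstream cytokines and receptors 2 rose, Csf1 and Ifngr1, and 0 fell. Of 11 interferon-regulated genes Irf5 rose (1.00 ± 0.211), Ifit1 fell (-0.94 ± 0.178) and 9 did not pass. Of 35 tested genes of chemokine receptor signalling 2 rose, the G protein subunits Gng2 and Gnai1, and 0 fell. Of 16 proteases and matrix carriers that act on chemokines Mmp14 and Adam10, the sheddase of Cx3cl1 and Cxcl16, rose and 0 fell. Of 6 tested atypical receptors and family members outside the name rule 0 passed, with a median of 1.01, against 0.82 over the tested members.

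Marker genes of cell types were counted alike. Of the B and plasma cell, neutrophil, dendritic cell and endothelial markers 0 passed. Of 19 tested macrophage and Kupffer cell markers 6 rose, 0 fell and 13 did not pass (31.6%, beside 7.94% of all genes), with a median log2 fold change of 0.90. They included the mannose receptor Mrc1 at 77.1, 70.3 and 64.0 CPM in p62KO livers against 32.1, 40.7 and 40.2 CPM in WT livers, Cd14 and Trem2. Their summed level ranged between 1342 and 1550 CPM in p62KO livers and between 547 and 1443 CPM in WT livers, with no marker at 0. The pan-leukocyte gene Ptprc stood at 41.2, 32.3 and 26.1 CPM in p62KO livers, against 20.5, 29.5 and 14.5 CPM in WT livers. Of 13 tested T and NK cell markers 0 passed, and their sum ranged between 15.4 and 48.2 CPM in p62KO livers and between 14.1 and 18.0 CPM in WT livers. Of the cholangiocyte markers 4 of 9 rose (44.4%) and of the stellate cell markers 5 of 15 (33.3%). The summed level of the stellate cell markers was 815 to 1368 CPM in p62KO livers and 475 to 574 CPM in WT livers. The part of any of these cells in the chemokine and receptor differences was not tested.

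In vehicle-treated stellate cells, 6 of the 17 tested members rose in p62KO cells, 1 fell and 10 did not pass, where 12.9% of the 12681 genes tested passed, 6.95% as higher and 5.94% as lower. Those that rose were Ccl2, Ccl7, Ccl17, Cxcl3, Cxcl10 and Cx3cl1, and Cxcl14 fell. Of these, Ccl17, Cxcl3 and Cxcl14 entered the tests only through the genotype where they are higher. Their calls are a description, and the count that includes them cannot be set against the share of all genes. The median log2 fold change of the 17 was 2.58, against 0.03 over all genes. Without p62KO replicate 1 it was 0.33, 3 of the 17 passed and 6.51% of all genes did. The 2 p62KO libraries differed strongly in most of these genes, and only Cx3cl1, Ccl17 and Cxcl14 passed when p62KO replicate 1 was left out. Where leaving out a library leaves 1 in a group, that library is assumed to vary like those of the other groups, which alone supply the spread.

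The inflammatory ligands were high in p62KO replicate 1. Ccl2, on chromosome 11 at 82035571 to 82037453, stood at 350 and 25.9 CPM in vehicle-treated p62KO cells, against 8.56 and 7.63 CPM in vehicle-treated WT cells. Both p62KO libraries were above both WT libraries, but unequally (log2 fold change 4.54 ± 1.13, adjusted p = 0.034), and without p62KO replicate 1 it did not pass (1.68, adjusted p = 0.193). Ccl2 overlaps the gene model Gm17268 on the opposite strand. Its neighbour Ccl7, another Ccr2 ligand, at 82045712 to 82047525, stood at 196 and 13.4 CPM in p62KO cells, against 3.12 and 2.95 CPM in WT cells (5.10 ± 1.16, adjusted p = 0.0252; without p62KO replicate 1, 2.14 and 0.0954). Cxcl10 stood at 63.0 and 10.6 CPM in p62KO cells, against 5.43 and 6.09 CPM in WT cells (2.67 ± 0.73, adjusted p = 0.0465; without p62KO replicate 1, 0.89 and 0.284). Cxcl10 lies inside Art3 on the opposite strand. The number of members that passed changed with the library left out, and so did the number of all genes. Ccl2, Ccl7, Cxcl3 and Cxcl10 did not pass without WT replicate 1 or 2, which leaves a single vehicle-treated WT library. Cxcl10 passed only without p62KO replicate 2 (0.00559) among the 8 fits that left out 1 library, and Cxcl3 also missed the threshold without calcipotriol-treated WT replicate 1 (0.0629) or 2 (0.063).

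The Cxcr2 ligands Cxcl5, Cxcl3 and Cxcl1 showed the widest split of the members. They lie with Cxcl2 in 1 cluster on chromosome 5 between 90759360 and 90905938. Cxcl5 had 4733 and 6 counts in the vehicle-treated p62KO libraries, against 0 and 0 counts in the vehicle-treated WT libraries, or 247 and 0.317 CPM against 0 CPM. The p62KO sum was at least 1229-fold higher than the limit of 3 counts in WT cells, nearly all of it from replicate 1, and did not pass (adjusted p = 0.0548). Cxcl3 had 3744 and 11 counts in p62KO cells, against 1 and 1 counts in WT cells, a ratio of 1461 with a 95% counting interval of 404 to 12067. It passed (adjusted p = 0.037), but not without p62KO replicate 1 (0.227). Cxcl1 stood at 148 and 0.792 CPM in p62KO cells, against 1.02 and 0.670 CPM in WT cells, so that p62KO replicate 2 lay between the WT libraries (6.45 ± 2.02, adjusted p = 0.0701), and without p62KO replicate 1 its log2 fold change was -0.08. Cxcl2 had 37 and 0 counts in p62KO cells, against 0 in WT cells, and Ccl20, the ligand of Ccr6, had 77 and 1 counts in p62KO cells, against 0 in WT cells.

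Other members split alike. Ccl5 stood at 20.9 and 1.90 CPM in p62KO cells, against 1.90 and 1.41 CPM in WT cells (adjusted p = 0.108). Cxcl16 stood at 27.8 and 3.27 CPM in p62KO cells, against 3.40 and 5.02 CPM in WT cells (adjusted p = 0.164). The scavenger receptor Cxcr7 stood at 79.6 and 3.75 CPM in p62KO cells, against 7.06 and 6.90 CPM in WT cells (adjusted p = 0.133). In all 3 genes p62KO replicate 1 was high, and for Cxcl16 and Cxcr7 p62KO replicate 2 was below both WT libraries. Summed over all ligands but Cxcl12, the p62KO libraries held 1272 and 83.3 CPM, against 36.8 and 36.0 CPM in the WT libraries.

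**Figure D3:**
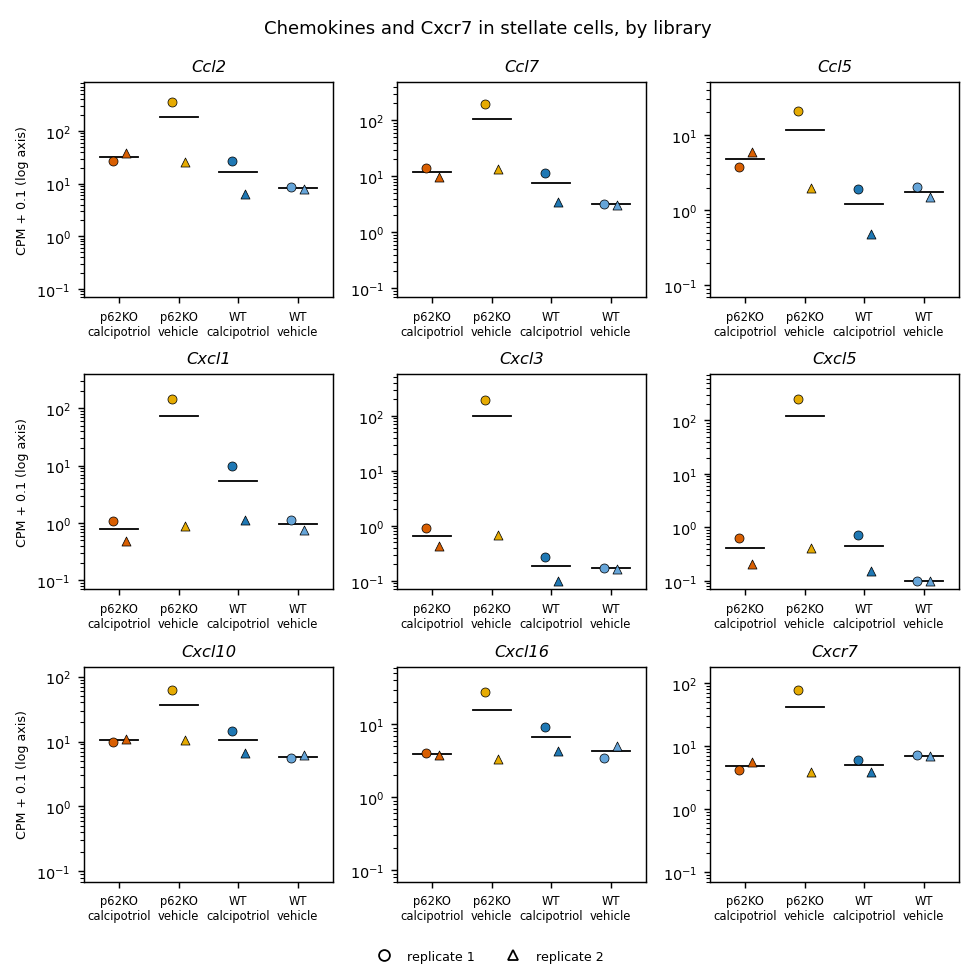
CPM + 0.1 (log axis) of 8 ligands and Cxcr7 in each stellate cell library, with circles for replicate 1, triangles for replicate 2 and a bar at the group mean (n = 2). Replicate 1 of vehicle-treated p62KO cells tops every panel, at 247 CPM for Cxcl5 where replicate 2 had 0.317 CPM.

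The split between replicates was counted in every group, over genes with at least 1 CPM in either library, as a ratio of at least 2-fold after adding 0.5 CPM. In vehicle-treated p62KO cells 12 of 18 such members were higher in replicate 1 and 2 were lower, where 7.46% and 1.47% of all such genes were. Members that reach 1 CPM in replicate 1 alone, such as Ccl20, Cxcl2 and Ccl8, had to be higher there. In calcipotriol-treated WT cells 6 of 12 were higher in replicate 1 (Ccl2, Ccl5, Ccl7, Cxcl1, Cxcl10 and Cxcl16) and 0 were lower, where 1.5% and 0.0849% of genes were. In calcipotriol-treated p62KO cells 0 of 11 differed in either direction, where 8.54% of genes were higher and 1.66% lower in replicate 1, and in vehicle-treated WT cells 0 of 12 did, where 0.0693% and 0.0952% were. Along with the members, 7 of 10 interferon-regulated genes, 7 of 21 NF-kappa B genes and 5 of 17 upstream cytokines and receptors were higher in replicate 1 of vehicle-treated p62KO cells and 0 were lower. Saa3, an acute-phase gene named after its values were seen, stood at 298 and 0.158 CPM in those libraries, and at 30.7 and 0.544 CPM in calcipotriol-treated WT cells.

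**Figure D4:**
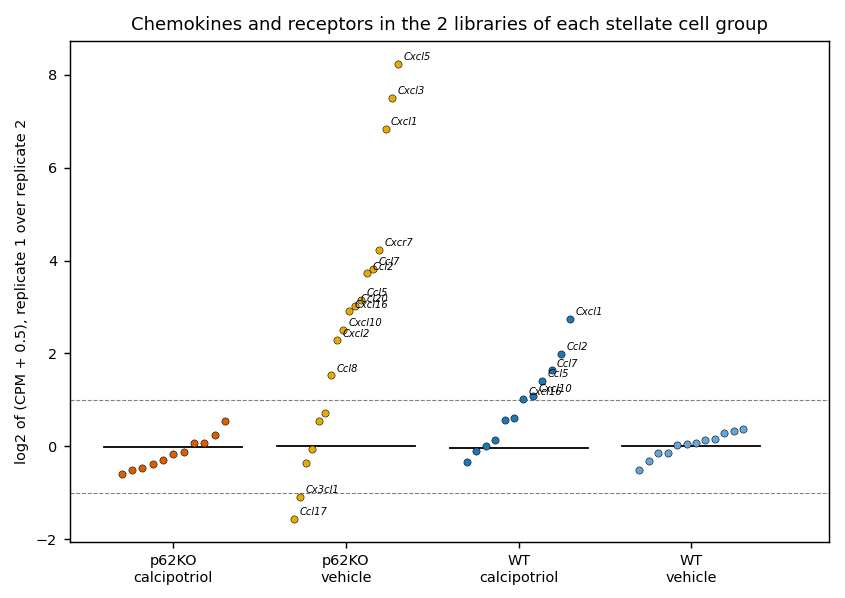
log2 ratio of replicate 1 over replicate 2 (CPM + 0.5) for members with at least 1 CPM in either library, 1 point per gene, in each stellate cell group, with dashed lines at 2-fold and a black bar at the median of all genes. In vehicle-treated p62KO cells 12 points lie above the upper line and Cx3cl1 and Ccl17 below the lower one, and 6 points lie above the upper line in calcipotriol-treated WT cells.

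Macrophage markers were looked at in the same libraries. Of the 20, 10 were at 0 in vehicle-treated p62KO cells and 14 in vehicle-treated WT cells. Emr1 (F4/80), Clec4f, Marco, Cd163 and the 3 C1q chains were at 0 in all 8 libraries, and Ptprc was at 0 except for 2 counts in calcipotriol-treated WT cells. The summed level of the list ranged between 38.6 and 211 CPM in vehicle-treated p62KO cells and between 79.6 and 83.7 CPM in vehicle-treated WT cells. With calcipotriol it was 219 and 87.8 CPM in WT replicates 1 and 2, and 43.1 and 48.5 CPM in p62KO cells. Of 6 markers above 1 CPM, 5 were at least 2-fold higher in replicate 1 of vehicle-treated p62KO cells, where 7.46% of all genes were. In calcipotriol-treated WT cells 2 of 5 were, where 1.5% of genes were.

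Promoter sequences are shown for the 5 members that split between the p62KO replicates and hold a motif match, beside Cx3cl1, which did not follow replicate 1. They are RefSeq windows on GRCm38.p6, running 250 bases before to 50 after the gene start, and 40 of the 55 members had one. Capitals mark matches to the kappa B consensus, the motif bound by NF-kappa B, searched on both strands, where an 11-letter run of capitals holds 2 overlapping matches. Cxcl3 is at chr5:90785851-90786150 (+), Cxcl1 at chr5:90890995-90891294 (+), Cxcl2 at chr5:90903649-90903948 (+), Cxcl10 at chr5:92348840-92349139 (-), Ccl20 at chr1:83116516-83116815 (+) and Cx3cl1 at chr8:94771930-94772229 (+).
Cxcl3: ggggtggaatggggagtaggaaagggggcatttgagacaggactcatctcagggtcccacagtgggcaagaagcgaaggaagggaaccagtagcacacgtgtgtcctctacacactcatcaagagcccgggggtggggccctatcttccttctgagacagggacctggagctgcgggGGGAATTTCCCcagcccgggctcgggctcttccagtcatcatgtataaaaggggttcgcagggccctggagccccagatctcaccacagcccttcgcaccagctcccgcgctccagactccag
Cxcl1: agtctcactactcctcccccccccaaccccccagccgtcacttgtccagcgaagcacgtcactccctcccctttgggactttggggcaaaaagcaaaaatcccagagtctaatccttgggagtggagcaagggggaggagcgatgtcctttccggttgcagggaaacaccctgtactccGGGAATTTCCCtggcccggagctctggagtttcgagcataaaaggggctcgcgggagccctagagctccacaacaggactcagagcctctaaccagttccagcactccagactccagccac
Cxcl2: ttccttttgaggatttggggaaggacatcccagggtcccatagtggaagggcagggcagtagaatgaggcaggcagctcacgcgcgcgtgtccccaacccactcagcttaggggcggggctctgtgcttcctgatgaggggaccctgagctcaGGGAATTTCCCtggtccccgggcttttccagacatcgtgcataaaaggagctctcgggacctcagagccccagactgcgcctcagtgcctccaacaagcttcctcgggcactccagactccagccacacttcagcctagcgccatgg
Cxcl10: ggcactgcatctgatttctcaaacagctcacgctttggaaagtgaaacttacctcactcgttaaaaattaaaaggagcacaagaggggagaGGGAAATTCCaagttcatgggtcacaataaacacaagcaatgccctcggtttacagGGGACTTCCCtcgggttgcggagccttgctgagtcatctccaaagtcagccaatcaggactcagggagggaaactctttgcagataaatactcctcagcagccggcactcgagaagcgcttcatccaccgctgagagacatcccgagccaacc
Ccl20: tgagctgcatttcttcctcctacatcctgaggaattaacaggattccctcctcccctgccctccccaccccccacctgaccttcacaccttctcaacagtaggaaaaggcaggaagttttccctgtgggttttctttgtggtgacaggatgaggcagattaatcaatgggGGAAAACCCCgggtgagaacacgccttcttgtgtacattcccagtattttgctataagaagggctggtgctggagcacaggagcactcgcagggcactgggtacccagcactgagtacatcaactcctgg
Cx3cl1: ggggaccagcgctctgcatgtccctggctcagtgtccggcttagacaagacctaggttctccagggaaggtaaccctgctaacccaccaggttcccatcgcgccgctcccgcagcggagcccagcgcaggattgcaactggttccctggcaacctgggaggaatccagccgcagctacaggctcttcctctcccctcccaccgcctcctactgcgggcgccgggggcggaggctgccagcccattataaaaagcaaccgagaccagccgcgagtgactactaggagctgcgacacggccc

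Cxcl1, Cxcl2 and Cxcl3 hold the same 11 letters, GGGAATTTCCC, beginning 71, 97 and 73 bases before the start. Cxcl10 holds 2 separate matches, beginning 159 and 103 bases before the start, and Ccl20 holds 1, beginning 80 bases before it. The kappa B consensus was found in at least 1 window of 9 of the 40 members (22.5%), in some cases 1 of several windows of a gene. Over all 32851 windows it was found in 4.51%. The first share counts genes and the second counts windows, so they are not in the same unit. Besides these 5 genes, Ccl9, Ccl27a, Ccr3 and Ccr6 hold it, of which Ccl9 and Ccl27a differed by less than 2-fold between the p62KO replicates and Ccr3 and Ccr6 had under 1 CPM. Of the other members at least 2-fold higher in p62KO replicate 1, Ccl8 and Cxcr7 have a window with no match, and Ccl2, Ccl5, Ccl7, Cxcl5 and Cxcl16 were not among the 40. The windows of Cx3cl1, Ccl17, Cxcl12 and Cxcl14 hold no kappa B match either. A second consensus, the ISRE of interferon-regulated genes, was searched alike and is not marked in capitals. It was found in 3 of the 40 members (7.5%), namely Ccl19, Cxcl10 and Cxcl14, and in 3.44% of all windows, again counted by gene and by window. A match of letters shows neither binding nor use.

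Cx3cl1, Ccl17 and Cxcl14 passed with all libraries and kept their direction without p62KO replicate 1. Ccl17 had no counts in WT cells and Cxcl14 none in p62KO cells. Each entered the tests only through the genotype where it has counts, so that these 2 passed is a description. Cx3cl1, on chromosome 8 at 94772009 to 94782427, stood at 5.69 and 12.7 CPM in vehicle-treated p62KO cells, against 1.36 and 1.81 CPM in vehicle-treated WT cells (2.53 ± 0.434, adjusted p = 0.00953). Here replicate 2, not replicate 1, was the higher p62KO library. It passed without either p62KO library, but not without WT replicate 1 (adjusted p = 0.106) or WT replicate 2 (0.0764). Ccl17, a Ccr4 ligand that lies on the same strand at 94810453 to 94812036, had 7 and 39 counts in p62KO cells, against 0 and 0 counts in WT cells. This is at least 11.9-fold higher than the limit in WT cells and passed (adjusted p = 0.0419). Among the fits without 1 library Ccl17 passed only without p62KO replicate 1 (0.0211), with adjusted p-values up to 0.18 in the others.

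Cxcl14 was the member that fell. It had 0 and 0 counts in vehicle-treated p62KO cells, against 26 and 30 counts in WT cells, or 1.77 and 2.01 CPM, at least 24.0-fold lower (adjusted p = 0.00679), and it passed whichever library was left out (0.00541 to 0.0499). Cxcr6, the Cxcl16 receptor, was too low to be tested, with 9 and 11 counts in p62KO cells and 0 in WT cells, at least 5.19-fold higher. Fyco1 overlaps it on the opposite strand. Cxcl12, by far the most abundant member, stood at 1604 and 1664 CPM in vehicle-treated p62KO cells, against 2570 and 2498 CPM in WT cells. The groups were tight and apart, but it did not pass (-0.63 ± 0.184, adjusted p = 0.0567), and it passed without calcipotriol-treated p62KO replicate 1 (0.0187) or 2 (0.018), which share the estimate of spread. Ccl25, a gut-homing chemokine, stood at 6.63 and 8.65 CPM in p62KO cells, against 7.67 and 6.16 CPM in WT cells, and overlapped.

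Every p62KO library exceeded every WT library in 8 of the 17 members with vehicle and was below in 2, where 34.6% and 34.2% of all genes did so. With calcipotriol this held for 8 and 4 members, and for 32.4% and 32.6% of genes.

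In calcipotriol-treated cells, 2 of the 17 tested members rose in p62KO cells, 1 fell and 14 did not pass, where 19.8% of genes passed, 10.3% as higher and 9.53% as lower. They were 3 of the 7 called with vehicle, from different libraries, and the sources do not say whether these came from the same lines. Ccl17 and Cxcl14 again entered only through the genotype where they have counts, so their recurrence is a description. Cx3cl1 stood at 9.96 and 12.3 CPM in calcipotriol-treated p62KO cells, against 1.38 and 1.20 CPM in calcipotriol-treated WT cells (3.11 ± 0.438, adjusted p = 0.00411), and missed the threshold only without WT replicate 2 (0.0564) among the 8 fits that left out 1 library. Ccl17 had 66 and 57 counts in p62KO cells, or 2.50 and 2.04 CPM, against 0 and 0 counts in WT cells, at least 27.0-fold higher (adjusted p = 0.0188). It did not pass without WT replicate 1 (0.0995), WT replicate 2 (0.104) or p62KO replicate 2 (0.0574) of the calcipotriol-treated groups. Cxcl14 had 0 and 0 counts in p62KO cells, against 24 and 28 counts in WT cells, at least 26.3-fold lower (adjusted p = 0.00573), and passed in all 8 of those fits.

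**Figure D5:**
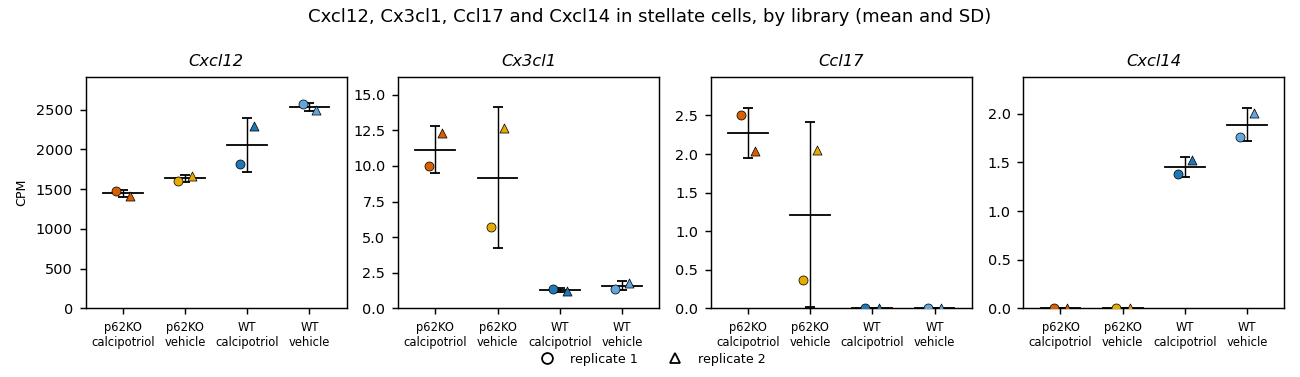
CPM (linear axis starting at 0) of Cxcl12, Cx3cl1, Ccl17 and Cxcl14 in each stellate cell library, with group mean and SD (n = 2). Ccl17 is at 0 in all 4 WT libraries, Cxcl14 is at 0 in all 4 p62KO libraries, and Cx3cl1 lies between 5.69 and 12.7 CPM in p62KO cells and between 1.20 and 1.81 CPM in WT cells.

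With calcipotriol no p62KO library stood as high in the inflammatory ligands as vehicle-treated p62KO replicate 1, on which the wide vehicle differences rest. For Cxcl1 the log2 fold change was -0.08 with vehicle without that library, and -2.96 ± 1.86 with calcipotriol. Ccl2 stood at 26.7 and 38.1 CPM in calcipotriol-treated p62KO cells, against 26.7 and 6.31 CPM in calcipotriol-treated WT cells. Cxcl1 stood at 0.985 and 0.394 CPM in p62KO cells, against 9.76 and 1.03 CPM in WT cells, and Ccl7 at 14.1 and 9.48 CPM in p62KO cells, against 11.4 and 3.32 CPM in WT cells. In each of these genes WT replicate 1 was the higher WT library, and none of the 3 passed. Cxcl10 stood at 9.73 and 11.0 CPM in p62KO cells, against 14.5 and 6.53 CPM in WT cells. Cxcl12 stood at 1479 and 1418 CPM in p62KO cells, against 1816 and 2298 CPM in WT cells (-0.51 ± 0.184, adjusted p = 0.0822; 0.0415 without p62KO replicate 1). Ccl27a (0.96 ± 0.45, adjusted p = 0.152) and Ccl5 (2.09 ± 1.03, adjusted p = 0.171; 0.0483 without vehicle-treated p62KO replicate 2) did not pass.

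The effect of calcipotriol itself was compared within each genotype. In p62KO cells 0 of 17 members passed, where 0.0% of all genes did. At an unadjusted p under 0.05 there were 8 members and 1714 genes in edgeR, and DESeq2 called 0 members and 54 genes. The smallest p-values belonged to Cxcl3, Cxcl1 and Cxcl5, each with an adjusted p of 0.361. Cxcl1 stood at 0.985 and 0.394 CPM in calcipotriol-treated p62KO cells, against 148 and 0.792 CPM in vehicle-treated p62KO cells, so the treated libraries lay at the level of 1 vehicle library and far under the other. Without vehicle-treated p62KO replicate 2, 8 members and 195 genes passed, Cxcl3 (adjusted p = 0.00366), Cxcl5 (0.0101) and Cxcl1 (0.0286) among them, with a single vehicle-treated p62KO library and the spread taken from the other groups. Without vehicle-treated p62KO replicate 1, the log2 fold change of Cxcl1 was -0.21, against -6.75 ± 1.99 with all libraries.

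In WT cells 0 of 17 members passed, where 0.0% of all genes did, with 0 members and 301 genes at an unadjusted p under 0.05 in edgeR and 0 members and 16 genes called by DESeq2. Cxcl12 (-0.30 ± 0.183), Cxcl1 (2.66 ± 1.95) and Cxcl10 (0.86 ± 0.712) had the smallest p-values, each with an adjusted p of 1. Both treated WT libraries exceeded both vehicle-treated ones in 4 members and were below in 3, where 25.0% and 29.3% of genes did so, and in p62KO cells the counts were 0 and 2 members, against 21.4% and 19.0% of genes. Averaged over genotypes 0 members passed and 0.0237% of genes did, and 1 member, Cxcr7, had an unadjusted p under 0.05 (-1.83 ± 0.718, adjusted p = 0.611). DESeq2 called 0 members in that average. The interaction of calcipotriol and genotype passed for 0 members and 0.0% of genes. There 5 members and 677 genes had an unadjusted p under 0.05, led by Cxcl1 (-9.41 ± 2.72), Ccl7 (-4.42 ± 1.47) and Cxcl10 (-2.69 ± 0.991), each with an adjusted p of 0.708, and DESeq2 called 0 members.

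Lists of pathway genes were counted between the stellate cell genotypes, beside 12.9% of all genes passing with vehicle and 19.8% with calcipotriol. Of 21 tested NF-kappa B genes 3 rose in vehicle-treated p62KO cells (14.3%), 0 fell and 18 did not pass. The 3 were Icam1, Nfkbia and Bcl3, and all were higher in p62KO replicate 1, Nfkbia at 142 and 51.0 CPM in p62KO cells against 31.9 and 28.2 CPM in WT cells. Without that library none of the 3 passed, with log2 fold changes of 1.91 for Icam1, 0.77 for Nfkbia and 1.14 for Bcl3. With calcipotriol 0 of 21 passed. Of 16 upstream cytokines and receptors, the interleukin-33 receptor Il1rl1 fell to 1.62 and 1.16 CPM in vehicle-treated p62KO cells, against 61.4 and 60.9 CPM in WT cells (-5.45 ± 0.277, adjusted p = 8.14e-05), Ifngr1 fell and Tlr2 rose. Without p62KO replicate 1 Il1rl1 passed (0.000712), and Ifngr1 (0.15) and Tlr2 (0.26) did not. With calcipotriol Il1rl1 stood at 0.909 and 0.608 CPM in p62KO cells, against 47.1 and 52.7 CPM in WT cells (-6.03 ± 0.286, adjusted p = 6.91e-05). Of 26 tested receptor signalling genes 3 rose and 2 fell with vehicle, and 5 rose and 6 fell with calcipotriol. The subunit Gng2 rose in p62KO cells with vehicle (2.55 ± 0.374) and with calcipotriol (1.85 ± 0.364), and Gnaq fell in both (-0.75 ± 0.167 and -1.10 ± 0.167). Without p62KO replicate 1 Gng2 passed with vehicle (0.0171) and Gnaq did not (0.0722). Of 11 interferon-regulated genes 0 rose or fell with vehicle and Ifit3 alone fell with calcipotriol. Without p62KO replicate 1 the median log2 fold change of the 11 with vehicle was -0.87, against 0.01 over all genes. Stat2, Irf7, Irf9 and Isg15 were then lower in p62KO cells, with log2 fold changes of -1.52 to -1.79. Of 13 proteases and matrix carriers the heparan sulfate proteoglycan Sdc3 rose in p62KO cells in both comparisons, while Mmp12, a protease that cleaves chemokines, was at 0 in all 4 p62KO libraries and at 0.603 to 2.34 CPM in WT libraries. Without p62KO replicate 1 Sdc3 passed with vehicle (0.0465) and Mmp12 did not (0.0652).

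Cell type markers were counted in the same fits. Of 13 tested stellate cell and myofibroblast markers 5 rose and 1 fell in vehicle-treated p62KO cells, and 6 rose and 3 fell in calcipotriol-treated p62KO cells. The shares were 46.2% and 69.2%, beside 12.9% and 19.8% of all genes. Markers moved both ways, with vehicle log2 fold changes without p62KO replicate 1 of -2.74 for Pdgfra and 1.54 for Col1a2. The smooth muscle actin gene Acta2 stood at 2631 and 2690 CPM in vehicle-treated p62KO cells, against 739 and 713 CPM in vehicle-treated WT cells (1.87 ± 0.262, adjusted p = 0.00445; 0.0177 without p62KO replicate 1). The summed level of the list ranged between 12154 and 13434 CPM in vehicle-treated p62KO cells and between 7706 and 7788 CPM in vehicle-treated WT cells. With calcipotriol it ranged between 14943 and 22525 CPM in p62KO cells and between 7065 and 7646 CPM in WT cells. Of 4 tested cholangiocyte markers Spp1 and Sox9 fell in p62KO cells in both comparisons, and Krt19 rose with calcipotriol. Spp1, which encodes the secreted protein osteopontin, stood at 191 and 171 CPM in vehicle-treated p62KO cells, against 962 and 958 CPM in vehicle-treated WT cells (-2.41 ± 0.257, adjusted p = 0.00141). Of the atypical receptors and family members outside the name rule the platelet chemokine Ppbp alone was tested, and it did not pass in either comparison. The 7 genes of that list summed to 5.89 and 0.0528 CPM in vehicle-treated p62KO cells, against 0.475 and 0.268 CPM in vehicle-treated WT cells. The part of these markers in the chemokine differences was not tested.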

How the data were processed

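Polyadenylated RNA of 14 libraries was sequenced as single-end reads of 75 nucleotides from directional libraries, per the labels' protocols. The authors deposited raw counts per gene symbol in 2 tables of 23420 rows, and the submitters' processing notes name mm10. The sources used here name no aligner, counting tool, annotation or strand setting. Liver and stellate cell tables were scaled and fitted separately, so no level was tested between them.

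Counts were tested in R 4.3.3 with edgeR 4.0.16 (TMM scaling, filterByExpr, glmQLFit and glmQLFTest, two-sided), with Benjamini-Hochberg adjustment over all genes tested in a comparison and a threshold of 0.05. The 6 livers were fitted together, and so were the 8 stellate cell libraries, with 4 group means. The SE is the log2 fold change divided by the square root of F. The scripts were tested on simulated data. Alternatives were DESeq2 1.42.0, no filter, only the 2 groups compared, a replicate block and leaving out libraries; list counts and Ccl8 without 1 library were added after seeing the data. Whether replicate numbers pair samples was not settled, and the main fits used no replicate block. Lengths and positions came from GENCODE vM21 on GRCm38 and promoters from RefSeq.

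Members were the rows of the name rule, except 1 that, like 1 gene of the lists, is not reported here and enters no count. Named with values were members that passed, up to 3 with the smallest p that did not, members with a mean of at least 5 CPM in a group, and up to 3 passing genes of each list. Other named genes were chosen after their values were seen. Members and lists were chosen with earlier results of these data known.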

Additional observations from a re-analysis of the deposited data

Results flagged for a closer look

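The genotype difference of Cxcl14, and with calcipotriol that of Ccl27a, ran in opposite directions in liver and in stellate cells, with no overlap between the groups compared, and the difference between the tissues was not tested. Cxcl14 had a log2 fold change of 1.52 in p62KO over WT livers. In vehicle-treated stellate cells it averaged 0 CPM in p62KO cells and 1.89 CPM in WT cells, and in calcipotriol-treated cells 0 CPM in p62KO cells and 1.45 CPM in WT cells. Ccl27a had a log2 fold change of -0.52 in p62KO over WT livers, whereas it averaged 3.07 CPM in p62KO cells and 1.58 CPM in WT cells among calcipotriol-treated stellate cells. In vehicle-treated stellate cells the groups overlapped, with 2.71 and 1.69 CPM in p62KO cells and 2.11 and 1.87 CPM in WT cells, and Ccl27a passed in none of these comparisons.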

How the results depend on the processing

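In each comparison the members that passed were followed, with up to 3 of smallest p that did not. Across the alternatives, 424 of their fold changes kept direction and side of the threshold, 73 lost a call, 24 gained one and 9 changed sign. The 424 include members that passed in neither fit, so they do not give the share of calls that held. A lone library left in a group was assumed to vary like the others. With 1 library left out, 0 to 8 members and 3 to 3669 genes passed in liver. In stellate cells the ranges were 1 to 14 members and 238 to 3635 genes for p62KO against WT with vehicle, and 1 to 4 members and 272 to 6052 genes with calcipotriol. They were 0 to 8 members and 0 to 4559 genes for calcipotriol in p62KO cells, 0 to 1 members and 0 to 3469 genes averaged over genotypes, and 0 to 2514 genes for the interaction. DESeq2 called 8 members and 2372 genes in liver, 12 members in vehicle-treated cells, and 16 genes in WT cells, 54 in p62KO cells and 47 on average for calcipotriol. Member counts given here and below without the gene count of the same fit cannot be set against the share of all genes.

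With no filter, 12 members passed in vehicle-treated cells, and 3 genes in WT cells, 6 in p62KO cells and 27 on average for calcipotriol. With only the 2 groups compared, 3 members passed with vehicle, 1293 genes with calcipotriol and 345 genes for calcipotriol in WT cells. Without both vehicle-treated p62KO replicate 1 and calcipotriol-treated p62KO replicate 2, 5459 genes passed for p62KO against WT with vehicle, 5 members and 5606 genes with calcipotriol, and for calcipotriol 283 genes in WT cells, 5 in p62KO cells and 301 on average. There the log2 fold change of Cxcl1 was -0.08 for p62KO against WT with vehicle and 1.5 for the average, and for calcipotriol in p62KO cells those of Cxcl3, Cxcl1 and Cxcl5 were 0.44, 0.31 and 0.73. Without vehicle-treated p62KO replicate 1 alone, Cxcl1 changed by -0.08 and 1.23 in the same 2 comparisons. In an alternative chosen after seeing the data, without both vehicle-treated p62KO replicate 1 and calcipotriol-treated WT replicate 1, 2 members and 292 genes passed with vehicle, 334 genes with calcipotriol and 0 on average, and the log2 fold changes of Cxcl1 were -0.085 and 0.04. With 1 library left out, the log2 fold change of Cxcl1 ranged between -0.08 and 7.44 for p62KO against WT with vehicle and between -3.22 and 1.23 for the average. For calcipotriol in p62KO cells those of Cxcl3, Cxcl1 and Cxcl5 ranged between -8.43 and -0.06, between -7.73 and -0.21 and between -10.06 and -0.01. The cause of these shifts was not tested.

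Whether replicate numbers pair the samples was checked by correlating deviations from the group means. Correlations of deviations were 0.192, -0.191 and 0.142 in liver. They were -0.148 to 0.433 between stellate cell groups, highest between vehicle-treated p62KO and calcipotriol-treated WT cells. With 2 libraries per stellate cell group each of these is a single contrast, which cannot decide whether replicates were paired. With the replicate block, 3 members and 639 genes passed in liver, 6 members in vehicle-treated cells, 3 in calcipotriol-treated cells and 6 genes for the average. A crossed block for calcipotriol in p62KO cells, chosen after seeing the data, called 0 members and 0 genes. Depth limits members at 0 to fewer than 3 counts per group, and groups of 2 or 3 libraries limit every call.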

Other observations

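For B and plasma cells 0 of 5 tested markers passed in liver, for neutrophils 0 of 7, for dendritic cells 0 of 8 and for endothelial cells 0 of 10. The summed dendritic cell markers ranged between 22.3 and 29.4 CPM in p62KO livers and between 12.0 and 16.5 CPM in WT livers. The summed neutrophil markers ranged between 15.0 and 56.6 CPM in p62KO livers and between 10.5 and 31.7 CPM in WT livers. Among hepatocyte markers Ttr alone fell, to 2932, 2836 and 3359 CPM in p62KO livers, against 5971, 5514 and 6288 CPM in WT livers (-0.96 ± 0.205, adjusted p = 0.0412). In vehicle-treated stellate cells 0 of 5 tested macrophage markers, 0 of 1 T and NK cell, 0 of 3 dendritic cell, 0 of 2 endothelial and 0 of 2 hepatocyte markers passed between genotypes. With calcipotriol 0 of 5 macrophage markers passed, Lck rose in p62KO cells, and Itgax, Kdr and Asgr1 fell, where 19.8% of all genes passed. Their mean levels were low. Lck stood at 1.80 CPM in p62KO cells against 0.31 CPM in WT cells, and Itgax at 0.15 against 1.18 CPM. Kdr stood at 1.72 against 7.49 CPM and Asgr1 at 0.018 against 0.54 CPM. No B cell or neutrophil marker was tested there.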
